A study of Homo sapiens with 4 samples.

Results

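Vimentin (VIM), S100A4, lumican (LUM), decorin (DCN), fibroblast activation protein (FAP) and the transcription factors SNAI1, SNAI2, TWIST1, ZEB1 and ZEB2 are the mesenchymal markers and regulators of epithelial-mesenchymal transition described here. The genes were chosen with earlier results of these data known. Their probes were found by gene name in the name column of the array table, and every probe with one of these names was taken. The 10 genes had 16 of the 47229 probes on the array, which carried 31332 gene names in all. The samples were H4 cells given GANT61, H4 cells given DMSO, ES2 cells given GANT61 and ES2 cells given DMSO, with 1 Illumina HumanHT-12 V4 array each, RNA taken after 48 h, and GANT61 at 20 µM. ES2 is usually listed as an ovarian clear cell carcinoma line and H4 as a neuroglioma line, while the labels give the same ovarian ascites source and epithelial morphology to both. GANT61 is a small molecule that inhibits the GLI transcription factors of the Hedgehog pathway, and DMSO is its solvent. By its title, the study concerned autophagy and tumour cell growth under Hedgehog blockade. With 1 array per condition, no comparison within a line had a replicate check and none has a p-value.

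Epithelial-mesenchymal transition is the programme by which epithelial cells loosen their junctions, exchange keratins for vimentin and become motile. SNAI1, SNAI2, ZEB1 and ZEB2 are zinc finger repressors that bind E-box sequences in genes such as CDH1, which encodes E-cadherin, and TWIST1 is a basic helix-loop-helix factor that acts in the same programme. VIM, S100A4, LUM, DCN and FAP are products typical of mesenchymal cells. Glial tumour lines and many established carcinoma lines express part of this set without any recent transition.

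Values are first given as the authors' normalized intensity, on a linear scale with no fixed unit. Ratios of GANT61 over DMSO were taken after background correction and quantile normalization, in log2 units, and a negative ratio means a lower signal with GANT61. A probe counted as detected on an array at a detection p under 0.01. The deposited detection values name the line and not the treatment, so detection is given as the number of a line's 2 arrays. The authors' intensities had the same distribution on the 2 arrays of a line (medians of 111.3 and 111.3 in H4, of 75.1 and 75.1 in ES2) but not between the lines, so levels set across the lines carry no test. Where several probes of one gene passed detection on both of a line's arrays, the ratio of a single probe had a spread of 0.222 (SD, 1993 genes) in H4 and 0.143 (SD, 2545 genes) in ES2 on the log2 scale. This is a spread between probes on the same arrays and not between cultures.

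The line labels were set against marker genes, each by its brightest probe. Of 11 ovarian and Müllerian epithelial markers, 2 were detected on at least 1 H4 array (KRT8 and KRT18) and 3 on at least 1 ES2 array (KRT7, KRT8 and KRT18). CDH1, EPCAM and PAX8 were detected on no array of either line. Of 12 glial and neural markers, 5 were detected on at least 1 H4 array and 4 on at least 1 ES2 array, while GFAP was detected on none. Among them, OLIG2, a factor of the oligodendrocyte lineage, read 304 with GANT61 and 142 with DMSO in H4 (3.14-fold higher), and the adhesion molecule NCAM1 read 227 with GANT61 and 163 with DMSO there (1.64-fold higher). The glial transporter SLC1A3 read 301 with GANT61 and 396 with DMSO in H4 (1.42-fold lower), and 227 with GANT61 and 180 with DMSO in ES2. OLIG2 and NCAM1 were undetected in ES2. MBP went the other way, undetected in H4 and reading 605 with GANT61 and 563 with DMSO in ES2. TUBB3 was detected on all 4 arrays. The glial and neural markers therefore did not single out either line. The part of these markers in the results below was not tested. CD68 was the 1 of 10 blood cell markers that was detected in either line, and CDH5 in ES2 the 1 of 5 endothelial markers. The summed intensity of the 10 blood cell markers was 1390 with GANT61 and 1311 with DMSO in H4, and 1237 with GANT61 and 1220 with DMSO in ES2. Of these sums, CD68 made up 443 and 396 in H4, and 649 and 604 in ES2. The rest was signal of undetected probes, so the sums do not measure blood cell content.

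**Figure D1:**
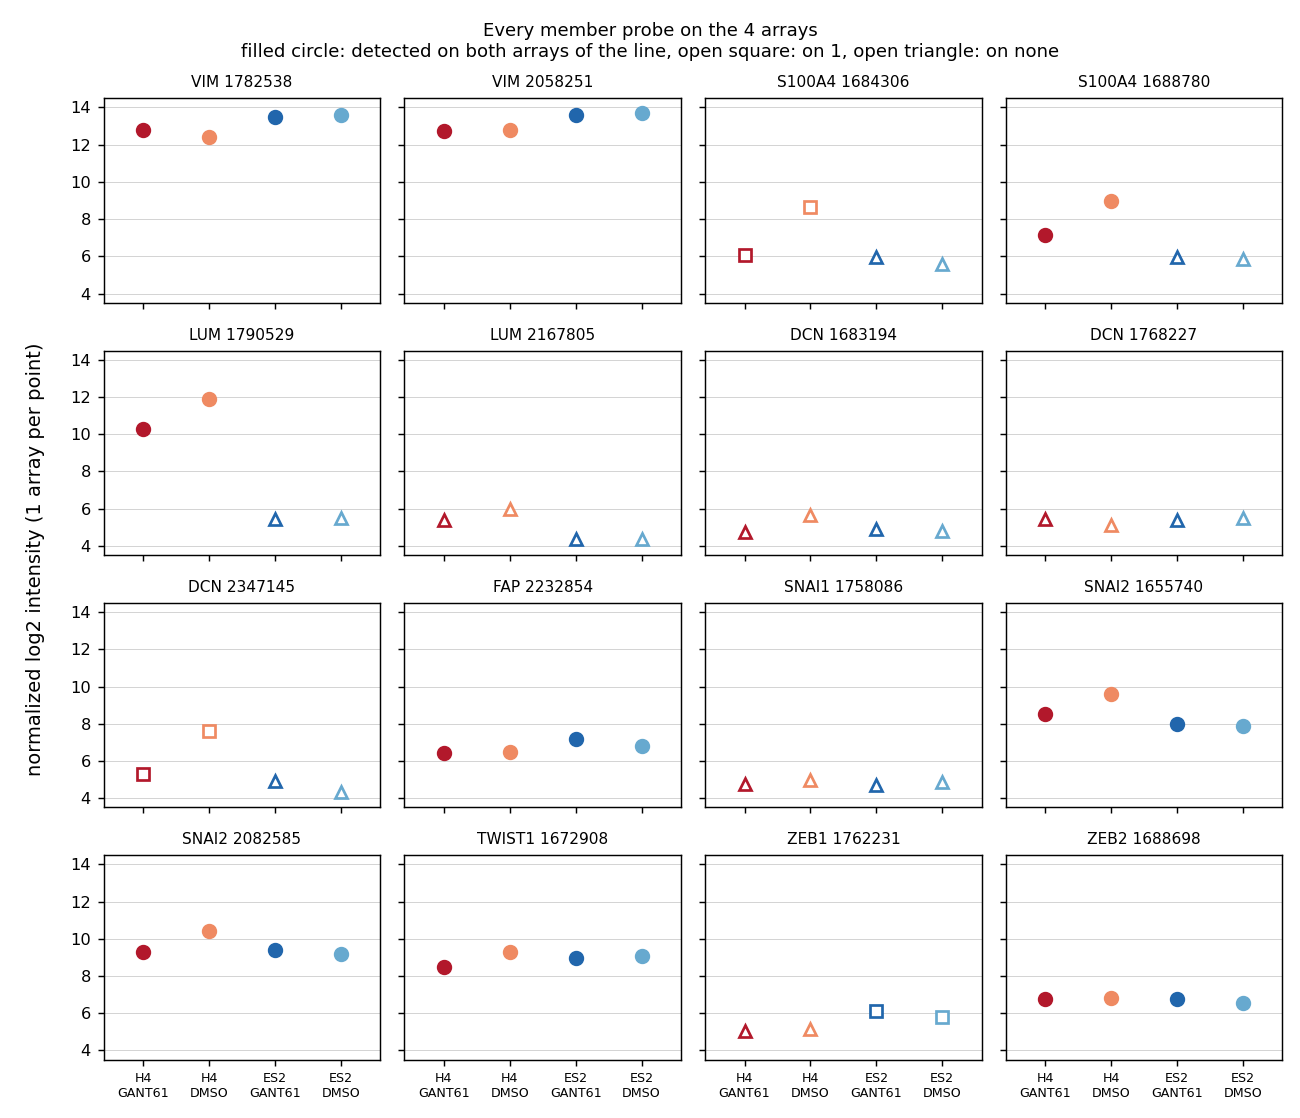
Normalized log2 intensity (vertical axis) of each of the 16 probes on the 4 arrays (horizontal axis), 1 point per array, with filled circles for probes detected on both arrays of the line, open squares on 1 and open triangles on none. VIM was bright on all 4 arrays, LUM probe ILMN_1790529 and both S100A4 probes stood highest on the H4 DMSO array, and SNAI1 was undetected throughout.

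In H4 cells, S100A4, LUM and SNAI2 each had a signal at least 2-fold lower with GANT61 than with DMSO by a probe detected on both arrays, TWIST1 was 1.77-fold lower, FAP and ZEB2 differed by less than the spread between probes, and the 2 probes of VIM disagreed. Of the 16 probes, 11 were detected on at least 1 H4 array, covering 8 of the 10 genes. Of these 11 probes, 6 were at least 2-fold lower and 0 at least 2-fold higher with GANT61, against backgrounds of 3.48% of 15219 probes lower and 3.95% higher. Of the 9 probes detected on both H4 arrays, 4 were at least 2-fold lower, against 2.82% of all 12107 probes detected on both. The other 2, of S100A4 and DCN, passed detection through 1 array, where a probe that is bright on a single array has to differ, so they carry bounds below. The median log2 ratio was -1.08 over the 11 probes and -0.05 over all probes. In these cultures, fewer cells expressing a gene and less of its RNA in each cell cannot be told apart.

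VIM encodes vimentin, the intermediate filament protein of mesenchymal and glial cells, and was detected on all 4 arrays by both of its probes. Probe ILMN_1782538 read 5686 with GANT61 and 4517 with DMSO in H4, and 13750 with GANT61 and 14998 with DMSO in ES2. Probe ILMN_2058251 read 5583 with GANT61 and 5686 with DMSO in H4, and 14998 with GANT61 and 15824 with DMSO in ES2. Both probes thus read higher on either ES2 array than on either H4 array, on a scale the lines do not share. The log2 ratio in H4 was 0.35 for the first probe and -0.04 for the second, so the probes did not give VIM one direction there. In ES2 the ratios were -0.12 and -0.08, both smaller than the spread between probes.

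S100A4 encodes a small calcium-binding protein, also known as FSP1 or metastasin, that is linked to motility. Probe ILMN_1688780 read 185 with GANT61 and 489 with DMSO in H4, and was detected on both arrays. In ES2 the same probe read 83.2 with GANT61 and 77.6 with DMSO, detected on neither. Probe ILMN_1684306 read 125 with GANT61 and 412 with DMSO in H4, where it was detected on 1 array, and 82.5 with GANT61 and 69.9 with DMSO in ES2, detected on neither. Both probes were therefore highest on the H4 DMSO array and lower on the other 3. The first probe was 3.54-fold lower with GANT61 in H4 (log2 ratio -1.82), below all but 0.519% of the line's detected probes. For the second, taking the brighter array as the one that detected it, the bound depended on the scale. It was at least 2.998-fold lower on the authors' intensities and at least 4.91-fold lower after background correction, which widens ratios of low signals.

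The promoter of S100A4 is shown because this gene had the lowest ratio among the member probes detected on both H4 arrays, and that of VIM, detected on all 4 arrays, for comparison. Each sequence is the 250 bases before the transcription start, from RefSeq on GRCh38.p14, given on the gene's strand. Capitals mark CAGGTG or its reverse complement, CACCTG, the E-box form bound by the Snail and ZEB factors.
S100A4, chr1:153545807-153546056, minus strand: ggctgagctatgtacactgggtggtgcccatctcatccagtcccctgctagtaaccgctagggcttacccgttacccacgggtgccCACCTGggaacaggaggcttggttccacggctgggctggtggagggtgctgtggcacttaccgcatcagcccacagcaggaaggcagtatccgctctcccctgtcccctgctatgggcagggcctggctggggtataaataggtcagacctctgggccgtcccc
VIM, chr10:17227991-17228240, plus strand: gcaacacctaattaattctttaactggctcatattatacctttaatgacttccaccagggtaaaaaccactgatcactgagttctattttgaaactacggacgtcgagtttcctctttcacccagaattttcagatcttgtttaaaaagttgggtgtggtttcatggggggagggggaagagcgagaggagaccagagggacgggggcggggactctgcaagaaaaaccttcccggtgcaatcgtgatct

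The S100A4 window held 1 such E-box, 159 to 164 bases before the start, and the VIM window none. CAGGTG was searched on both strands and occurred in 17.5% of the 35116 RefSeq windows of this length, so a match is common. The GLI consensus GACCACCCA, also searched on both strands, occurred in 0.199% of the windows and in none of those of the genes described. Windows were at hand for 4 of the 10 genes (VIM, S100A4, ZEB1 and ZEB2). ZEB1 had 7 alternative starts, of which 2 held a CAGGTG, and ZEB2 had none. A match describes letters in a window, and no binding was measured.

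LUM and DCN encode lumican and decorin, small leucine-rich proteoglycans that bind collagen fibrils. LUM probe ILMN_1790529 read 1132 with GANT61 and 3211 with DMSO in H4, against 67.3 with GANT61 and 67.6 with DMSO in ES2. It was detected on both H4 arrays and on neither ES2 array, so a clear LUM signal was seen in H4 alone. In H4 the probe was 3.07-fold lower with GANT61 (log2 ratio -1.62). The second LUM probe, ILMN_2167805, was detected on none of the 4 arrays and read between 50.3 and 121 on them, with its highest value also on the H4 DMSO array.

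DCN had 3 probes, and 1 of them was detected. Probe ILMN_2347145 read 91.9 with GANT61 and 233 with DMSO in H4, where 1 array detected it, and 58.6 with GANT61 and 49.7 with DMSO in ES2, where none did. It was at least 1.70-fold lower with GANT61 in H4 on the authors' intensities, under 2-fold, and at least 2.37-fold lower after background correction. The bound was 1.93-fold without background correction and 1.97-fold with an offset of 50. Probes ILMN_1683194 and ILMN_1768227 were undetected in both lines, reading 76.3 and 97.3 with GANT61 against 106 and 87.0 with DMSO in H4, so DCN rests on a single probe. LUM and DCN lie next to each other on chromosome 12, after EPYC and KERA, which encode the related proteoglycans epiphycan and keratocan. EPYC, detected on 1 H4 array, was at least 1.10-fold lower with GANT61 in H4 on the authors' intensities, and KERA, detected on 1 H4 array, read 110 with GANT61 and 136 with DMSO. In ES2 neither EPYC nor KERA was detected.

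FAP encodes a membrane-bound serine protease of activated fibroblasts and was detected on all 4 arrays by its single probe. It read 140 with GANT61 and 142 with DMSO in H4, and 181 with GANT61 and 140 with DMSO in ES2. The H4 values were nearly equal (log2 ratio -0.07). On the H4 GANT61 array, FAP (log2 6.42) lay near the lowest signal among probes detected on both H4 arrays (6.38). The ES2 value was 1.32-fold higher with GANT61 (log2 ratio 0.40). This was the highest ratio among the detected probes of these genes in ES2, with 97.7% of that line's detected probes at or below it.

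**Figure D2:**
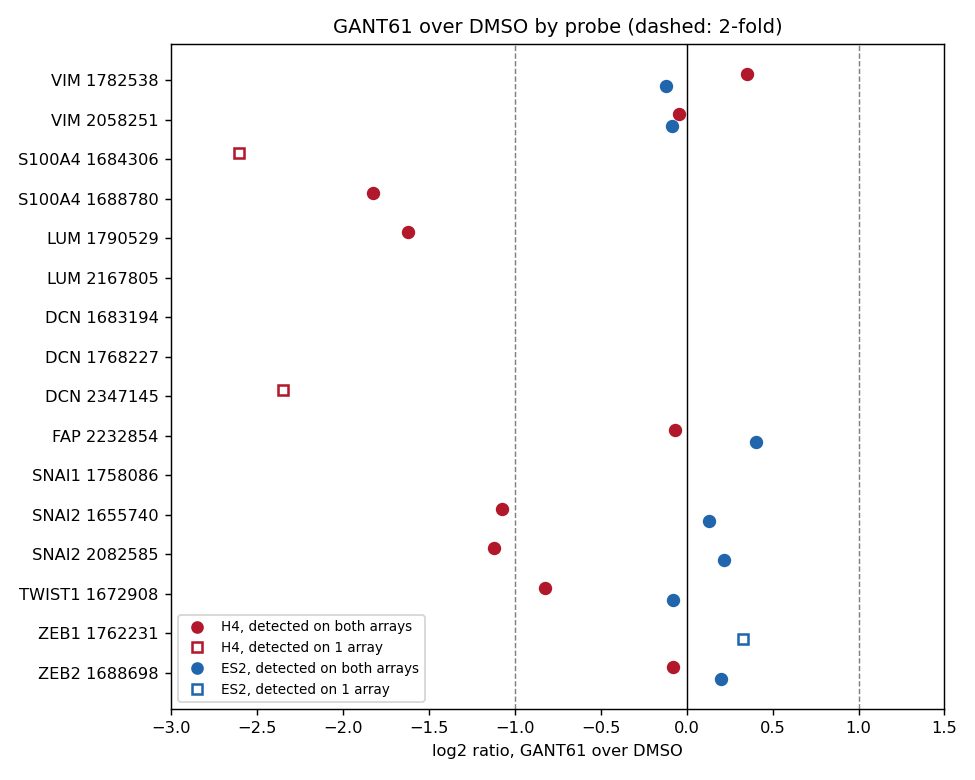
Log2 ratio of GANT61 over DMSO (horizontal axis) for each probe (vertical axis) in H4 and in ES2, where the probe was detected. Filled circles stand for probes detected on both arrays of the line, open squares for probes detected on 1, whose ratios are not bounds, and the dashed lines mark 2-fold. The H4 points of S100A4, LUM, DCN and SNAI2 lie left of the 2-fold line, and all ES2 points lie between -0.12 and 0.40.

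Among the transcription factors, SNAI2, also called Slug, had 2 probes and each of the others 1. Both SNAI2 probes had a lower signal with GANT61 in H4. Probe ILMN_2082585 read 606 with GANT61 and 1251 with DMSO in H4, and 788 with GANT61 and 682 with DMSO in ES2. Probe ILMN_1655740 read 378 with GANT61 and 728 with DMSO in H4, and 304 with GANT61 and 279 with DMSO in ES2. The H4 DMSO array was the highest of the 4 for both probes, and within ES2 the GANT61 array was the higher. In H4 the probes were 2.17-fold and 2.11-fold lower with GANT61 (log2 ratios -1.12 and -1.08), and on the authors' intensities the second was 1.93-fold lower, under 2-fold. In ES2 they were 1.16-fold and 1.09-fold higher (log2 ratios 0.21 and 0.13). The H4 minus ES2 difference of the log2 ratios was -1.33 and -1.21, which was not tested because no residual degrees of freedom remain for it.

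TWIST1 was detected on all 4 arrays by 1 probe, which read 370 with GANT61 and 611 with DMSO in H4, and 591 with GANT61 and 623 with DMSO in ES2. The H4 GANT61 array was the lowest of the 4. TWIST1 was 1.77-fold lower with GANT61 in H4 (log2 ratio -0.83), a ratio that 5.85% of the line's detected probes matched or went below, and 1.06-fold lower in ES2 (log2 ratio -0.08).

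Of the ZEB factors, ZEB2 was detected on all 4 arrays by 1 probe, reading 158 with GANT61 and 163 with DMSO in H4, and 139 with GANT61 and 122 with DMSO in ES2. Its log2 ratio was -0.08 in H4, smaller than the spread between probes, and 0.20 in ES2. ZEB1 was detected on no H4 array and on 1 ES2 array, where it read 89.97 with GANT61 and 76.1 with DMSO. Its bound in ES2 was 1.00-fold, so that probe allowed no fold to be given. In H4 the ZEB1 probe read 84.8 with GANT61 and 87.2 with DMSO.

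SNAI1, also called Snail, was detected on no array. Its probe read 76.5 with GANT61 and 81.6 with DMSO in H4, and 55.3 with GANT61 and 57.7 with DMSO in ES2, with detection p-values of at least 0.771 in H4 and 0.804 in ES2. A low SNAI1 level below the array's background would not have been seen.

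In ES2 cells no probe of these genes reached 2-fold in either direction. Of the 16 probes, 8 were detected on at least 1 ES2 array, covering 6 genes, with 5 ratios above 0 and 3 below. Over all ES2 probes, 8441 of 16505 ratios lay above 0 and 8044 below, so signs were split there too. The 5 above 0 included both SNAI2 probes, and ZEB1, which was detected on 1 array and allowed no fold to be given. The background was 0.0242% of 16505 probes at least 2-fold lower and 0.0303% at least 2-fold higher, so 2-fold differences were rare in ES2 as a whole. The median log2 ratio was 0.17 over the 8 probes and 0.01 over all probes. S100A4, LUM, DCN and SNAI1 were undetected in ES2 by all of their probes, so no ES2 response of these genes could be measured.

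**Figure D3:**
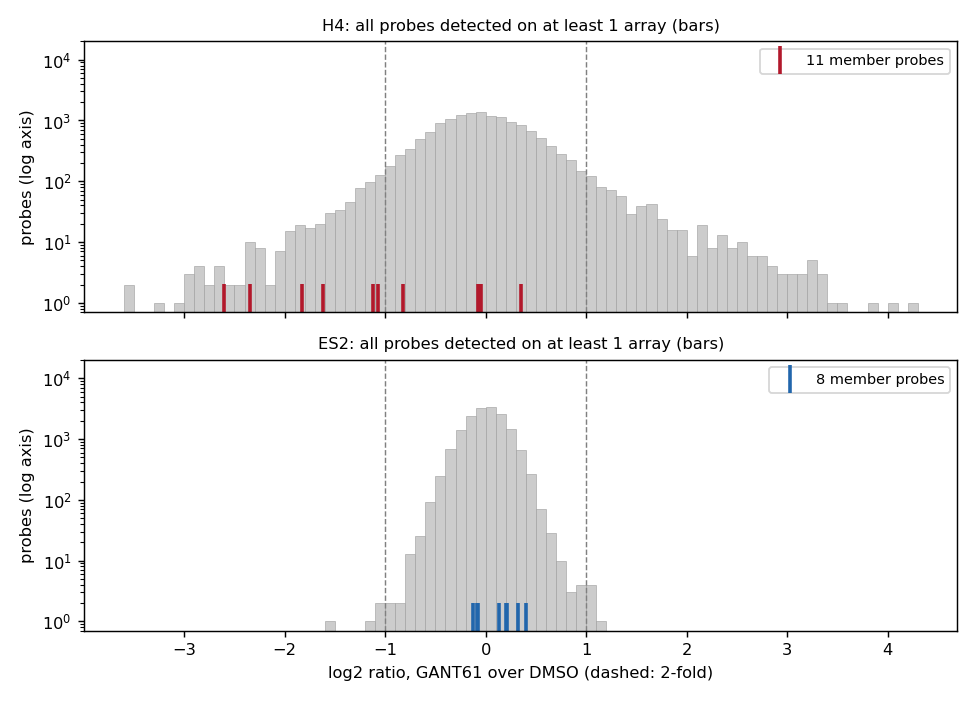
Number of probes (vertical axis, log scale) by log2 ratio of GANT61 over DMSO (horizontal axis), for 15219 probes in H4 and 16505 in ES2, with vertical ticks at the 11 and 8 member probes. In H4 the member ticks reach down to -2.61, whereas in ES2 they stay between -0.12 and 0.40.

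The response shared by the lines was tested with limma, with cell line as a block and the 2 lines as the replicates of the treatment. Of the member probes, 7 passed detection on at least 1 array in H4 and in ES2 and could enter the fit of 13269 probes (both VIM probes, FAP, both SNAI2 probes, TWIST1 and ZEB2). None passed an adjusted p under 0.05, and across all probes the share that passed was 0%. At an unadjusted p under 0.05 there were 0 member probes and 711 of all probes (5.36%). The largest member effects in size were SNAI2 probe ILMN_1655740 at a log2 difference of -0.47 ± 0.30 (SE, limma adjusted p = 1.00), TWIST1 at -0.45 ± 0.28 (SE, limma adjusted p = 1.00) and SNAI2 probe ILMN_2082585 at -0.45 ± 0.31 (SE, limma adjusted p = 1.00). The TWIST1 ratio was below 0 in both lines, but in ES2 by less than the spread between probes, and the SNAI2 ratios were below 0 in H4 only. FAP had 0.17 ± 0.26 and ZEB2 0.06 ± 0.25 (SE). The VIM probes had 0.12 ± 0.18 and -0.06 ± 0.16 (SE).

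Levels of the genes across the 4 arrays fell into a few orders on the normalized log2 scale. VIM was higher in ES2, with line means of 12.6 and 12.8 in H4 and 13.5 and 13.6 in ES2 for its 2 probes. FAP was 6.46 in H4 and 6.99 in ES2, but on the authors' intensities the ES2 DMSO array (140.0) lay between the H4 arrays (139.5 and 142.4). SNAI2 was 9.86 in H4 and 9.30 in ES2 by probe ILMN_2082585, but its H4 GANT61 array (9.30) lay between the ES2 GANT61 (9.41) and ES2 DMSO (9.19) arrays, closer to each than the spread between probes, and was the lowest of the 4 on the authors' intensities. By probe ILMN_1655740 SNAI2 was 9.06 in H4 and 7.92 in ES2, and both H4 arrays lay above both ES2 arrays. TWIST1 was 8.90 in H4 and 9.02 in ES2, with the H4 arrays on either side of the ES2 arrays. ZEB2 was 6.80 in H4 and 6.67 in ES2, with the ES2 DMSO array lowest (6.57) and the other 3 arrays between 6.76 and 6.84, closer to each other than the spread between probes. The lines may have been normalized separately by the authors, whose intensities had a common distribution within each line but not between the lines. The 4 arrays were then brought to common quantiles here, and no level was tested between the lines.

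Other genes of the same programme were examined as lists, each gene by its brightest probe, beside all measured genes, whose median log2 ratio was -0.05 in H4 (11546 genes, 470 at least 2-fold higher and 405 lower) and 0.00 in ES2 (12213 genes, 5 higher and 4 lower). Of 11 other transcription factors of the transition, 4 were measured in H4, with 1 at least 2-fold lower and 0 higher. That gene was SOX4, a high mobility group factor, which read 215 with GANT61 and 483 with DMSO in H4 (2.80-fold lower), and 224 with GANT61 and 205 with DMSO in ES2. In ES2, 8 were measured and 0 reached 2-fold, the largest ratios being those of TWIST2, the paralogue of TWIST1 (log2 ratio -0.34), and TCF4, an E protein that pairs with TWIST1 (0.22). Of 10 partners and regulators of Snail and ZEB proteins, 8 were measured in H4 and 10 in ES2, and 0 reached 2-fold in either line. The largest ratios in H4 were those of the histone methyltransferase EZH2 (-0.80) and the corepressor SIN3A (-0.59), and in ES2 those of the corepressor CTBP1 (-0.42) and the ubiquitin ligase subunit BTRC (0.33).

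Epithelial genes that the transition represses did not reach 2-fold either. Of 34 such genes, 8 were measured in H4, 6 of them below 0 with a median log2 ratio of -0.14, and 6 in ES2, 4 of them below 0 with a median of -0.12. Over all measured genes, 6291 of 11546 lay below 0 in H4 and 6014 of 12213 in ES2. In each line, 5 of the listed genes were detected on both arrays. CRB3, OVOL2 and KRT8 in H4 and DSP in ES2 passed detection through 1 array. The H4 genes among these allowed no fold to be given, so the counts below 0 give no direction for the list. In H4 the largest ratios were those of the keratin KRT18 (0.78) and the mucin MUC1 (-0.72), which went opposite ways, and in ES2 those of the tight junction scaffold TJP1 (0.31) and KRT18 (-0.29). CDH1, the classic repressed target, read 79.4 with GANT61 and 76.8 with DMSO in H4, and 64.9 with GANT61 and 65.1 with DMSO in ES2, below detection on each array. Any change of E-cadherin RNA below background would not have been seen.

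The 29 other mesenchymal genes went both ways in H4. Of 21 measured there, 6 were at least 2-fold lower and 3 at least 2-fold higher with GANT61 by their ratios, with a median of -0.17. Of these 21, 17 were detected on both H4 arrays. PDGFRA (log2 ratio -0.97), VCAN (-0.95) and, among the 6 lower, COL3A1 and COL1A1 passed detection through 1 H4 array. All of these were dimmer with GANT61, and a probe that is bright on a single array has to differ. The median of -0.17 includes them and so gives no direction for the list. COL1A1 was at least 1.09-fold lower on the authors' intensities and at least 1.19-fold lower after background correction, so its bound stayed under 2-fold. LOX, which crosslinks collagen, was 3.39-fold higher, reading 2821 with GANT61 and 907 with DMSO. In the other direction, the actin-binding protein TAGLN was 5.01-fold lower, reading 168 with GANT61 and 587 with DMSO, and the collagen COL3A1, detected on 1 H4 array, was at least 2.41-fold lower on the authors' intensities and at least 3.76-fold lower after background correction. Mesenchymal genes of H4 were therefore found on both sides. In ES2, 20 were measured and 0 reached 2-fold, with SPARC (0.43) and COL5A1 (-0.38) as the largest ratios.

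The closest relatives of the members were set beside them. Of the 15 other small leucine-rich proteoglycans, 3 were measured in H4 (EPYC, KERA and TSKU). TSKU was detected on both arrays and had a log2 ratio of -0.33. EPYC and KERA passed detection through 1 array, where a probe that is bright on a single array has to differ. EPYC was at least 2-fold lower by its ratio, with its bound given above, and KERA allowed no fold to be given. In ES2, TSKU (0.11) and BGN (0.04) were measured. Of 18 other S100 genes, 7 were measured in H4, where S100P was 2.93-fold and S100A16 2.24-fold higher and S100A3, detected on 1 array, at least 1.27-fold lower on the authors' intensities, so the family's median of 0.49 lay on the other side of 0 from S100A4. In ES2, 6 S100 genes were measured and the largest ratios were 0.30 for S100A11 and -0.21 for S100A14. Of 12 other intermediate filament genes, LMNB1, the lamin B1 of the nuclear envelope, was 3.09-fold lower in H4 and the 1 of 4 measured that reached 2-fold. In ES2 the largest of 6 were INA and SYNM, each at 0.30. Of 6 prolyl peptidases related to FAP, 3 were measured in each line, and DPP9 (0.39 in H4 and -0.23 in ES2) and PREP (0.34 in H4 and -0.24 in ES2) stayed under 2-fold.

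**Figure D4:**
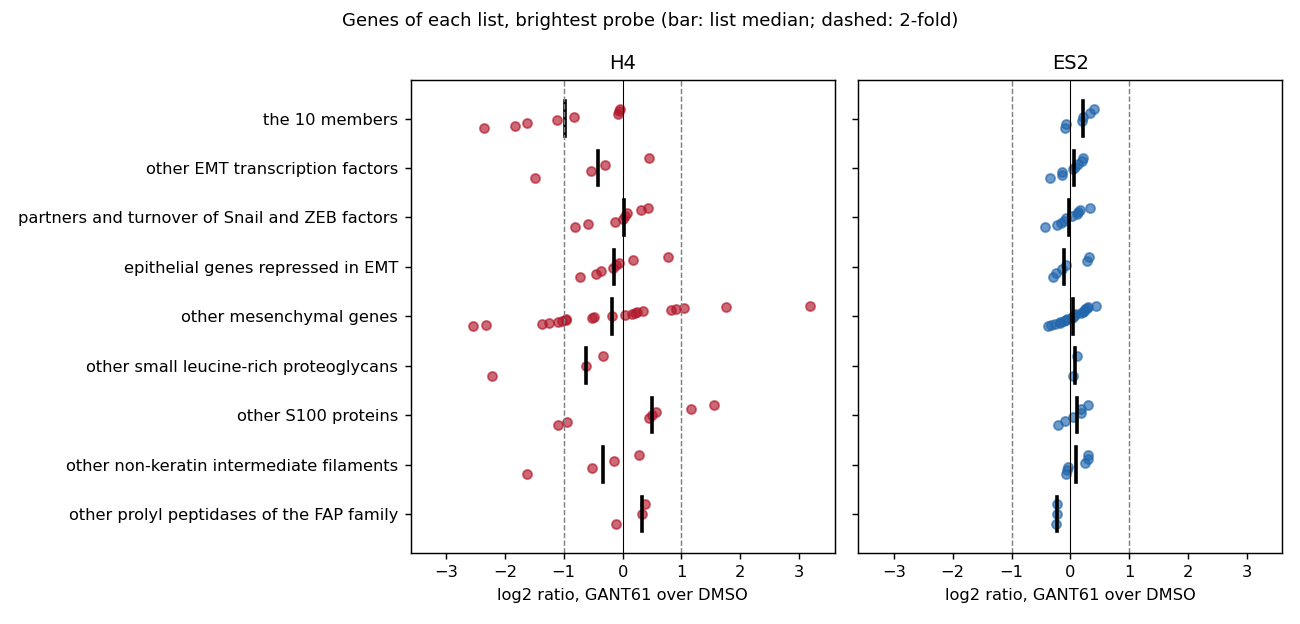
Log2 ratio of GANT61 over DMSO (horizontal axis) for the measured genes of each list (vertical axis) in H4 and in ES2, 1 point per gene by its brightest probe, with a bar at the list median and dashed lines at 2-fold. Genes detected on 1 array of a line have the same marker as the others, and their ratios are not bounds. The members' median was -0.97 in H4, with DCN detected on 1 array, and 0.21 in ES2, with ZEB1 detected on 1. The other mesenchymal genes spread to both sides in H4.

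For the members detected on all 4 arrays, the genes with the most similar pattern were found by the Euclidean distance between centred log2 values over 4 arrays, among 8815 genes detected on all of them. The nearest to TWIST1 were COQ2, an enzyme of ubiquinone synthesis (distance 0.02), and the replication fork protein DONSON (0.03). The nearest to SNAI2 were the immunoproteasome subunit PSMB8 (0.06) and PEG10 (0.11) by probe ILMN_2082585, and the histone gene H4C12 (0.13) and the caspase CASP6 (0.19) by probe ILMN_1655740. The 2 probes of SNAI2 thus had different neighbours. FAP was nearest to DLEU1 (0.02) and TAF15 (0.05), and ZEB2 to BTF3L4 (0.02) and C8orf76 (0.03). VIM was nearest to ANO10 (0.06) and LOC653438 (0.07) by probe ILMN_1782538, and to TCP1P3 (0.02) and GORASP1 (0.04) by the other. With 4 arrays, many genes lie near any pattern.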

How the data were processed

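Per the labels' protocols, biotinylated cRNA made from total RNA was read on Illumina HumanHT-12 V4 BeadChips. The authors' deposited value table holds a normalized intensity per probe and array, and its software is not given in the sources used here. Sorted values of a line's 2 arrays differed by a median of 0.0103% in H4 and 0.00457% in ES2, against 42.2% between the lines' DMSO arrays. A second deposited table holds, per the file headers, gene names, detection p-values and 4 signal columns that name no treatment, which were not used.

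Background was removed from the intensities by normexp with an offset of 16 (saddle-point estimates), then the 4 arrays were brought to common quantiles and log2 was taken (R 4.3.3, limma 3.58.1). The bound for a probe detected on 1 array holds the dimmer array at no less than the lowest signal among probes detected on both. The shared response was fitted with lmFit and eBayes (trend, line as a block, 1 residual degree of freedom) with Benjamini-Hochberg adjustment over all probes tested. This fit was also run on simulated data with equal noise and with known changes that were the same in both lines. That run does not cover changes present in a single line. List genes were brought to current symbols through RefSeq (GRCh38.p14, 27035 probes with a current symbol, 4626 by synonym and 3485 by gene number).

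Of each list, the text names genes at least 2-fold different, up to 4 per line, or else the 2 with the largest ratios. One gene that this rule names is not reported here. CDH1, EPCAM, PAX8, GFAP, NCAM1, SLC1A3, MBP, TUBB3, COL1A1, PDGFRA, VCAN, CRB3, OVOL2, DSP and KERA were named after their values were seen. The members and lists were chosen with earlier results of these data known. Having 4 arrays limits the precision. Alternatives changed background correction, offset, scaling, detection, the probe used, the trend and the line block.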

Additional observations from a re-analysis of the deposited data

Results flagged for a closer look

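Probes detected on both arrays of each line whose ratios of GANT61 over DMSO had opposite signs in the lines are given here, and the difference between the lines was not tested for any of them. The H4 minus ES2 difference of the log2 ratio was -1.33 for SNAI2 probe ILMN_2082585 and -1.21 for SNAI2 probe ILMN_1655740. It was 0.48 for VIM probe ILMN_1782538, -0.47 for FAP and -0.28 for ZEB2. In SNAI2 probe ILMN_2082585 alone among these was the ratio larger than the spread between probes in each line (-1.12 against 0.222 in H4, 0.21 against 0.143 in ES2).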

How the results depend on the processing

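The H4 count of 6 member probes at least 2-fold lower was 5 on the authors' intensities and 4 over probes detected on both arrays, an alternative chosen after seeing the data, and 6 under the other 5 probe-level alternatives. The H4 median log2 ratio of -1.08 was -0.70 without a detection filter (16 probes) and -0.83 over probes detected on both arrays (9 probes), which follows from the probes included. No member probe reached 2-fold in ES2, nor an adjusted p under 0.05 in limma, under any alternative run. At a detection p under 0.05, 2 of 9 member probes had an unadjusted p under 0.05, and the smallest limma adjusted p among the 9 was 0.51. The probes that this threshold added to the fit were those of S100A4. Their log2 ratios were -2.61 and -1.82 in H4 but 0.39 and 0.14 in ES2, so the lines did not share a direction. Over all H4 probes, the 529 lower and 601 higher at 2-fold were 308 and 400 without background correction, 321 and 417 with an offset of 50, and 230 and 310 on the authors' intensities. Over all ES2 probes, the 4 lower and 5 higher were 1 and 1 without background correction and with an offset of 50, 2 and 2 on the authors' intensities, 8 and 7 at a detection p under 0.05, and 78 and 81 without a filter. Of 81 recomputed values of single probes or genes, 70 moved by less than the spread between probes, 11 moved by more, all of them in S100A4 and DCN in H4, and 0 changed sign past 2-fold. No paired analysis was possible because each group has 1 array and so the groups share fewer than 2 replicate numbers; the shared fit instead set GANT61 against DMSO within each line. Probes near background give no usable ratio.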
